A study of Rattus norvegicus with 12 samples.

Results

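Pnpla3 and Cidea encode 2 proteins of the lipid droplet, and they were followed here across 4 diets in rat liver. They were picked because their deposited values changed strongly, and in opposite directions, between low and high dietary fat. Of 4736 genes that the platform annotation named by a single symbol, they are 2, and each was measured by 1 probe set (rc_AI639525_at for Pnpla3 and rc_AA800243_at for Cidea). Since the choice used the change with fat level, that change is described below without a test, and tests are given only for the comparison of oils.

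The animals were male Sprague-Dawley rats with a starting weight of 150 g. Rats of all 4 groups were fed through a cannula into the stomach (total enteral nutrition) for 21 days and overfed by 17% of calories. The 4 groups received 5% corn oil, 70% corn oil, 5% olive oil or 70% olive oil, in diets of equal calories whose carbohydrate share therefore ran opposite to the fat share. Corn oil is rich in polyunsaturated and olive oil in monounsaturated fatty acids. Total liver RNA of each group was hybridised as 3 pools to single-colour Affymetrix rat arrays, which gave 12 arrays. The labels used here do not say how many rats were in a pool, and p-values therefore reflect differences between pools. No group without overfeeding was analysed here.

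PNPLA3 (adiponutrin) belongs to the patatin-like phospholipase family and sits on the surface of hepatocyte lipid droplets, where triglycerides are stored. Its transcript is known to be induced by feeding and carbohydrate, through SREBP-1c and ChREBP, the transcription factors that also switch on fatty acid synthesis. CIDEA is one of the CIDE proteins, named for a domain shared with a DNA-fragmentation factor of apoptosis, and it promotes the transfer of lipid from small to large droplets. It is abundant in brown fat, low in lean liver and known to appear in fatty liver, and PPAR alpha and PPAR gamma, which are nuclear receptors activated by fatty acids, are among its known regulators.

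The promoters of both genes are shown because their transcripts moved in opposite directions with the same diets. They come from RefSeq (GRCr8) and cover 250 bases before to 50 bases after the annotated start. Capitals mark matches to the motifs named below, on either strand.

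Pnpla3 promoter, chr7:117173278-117173577, plus strand: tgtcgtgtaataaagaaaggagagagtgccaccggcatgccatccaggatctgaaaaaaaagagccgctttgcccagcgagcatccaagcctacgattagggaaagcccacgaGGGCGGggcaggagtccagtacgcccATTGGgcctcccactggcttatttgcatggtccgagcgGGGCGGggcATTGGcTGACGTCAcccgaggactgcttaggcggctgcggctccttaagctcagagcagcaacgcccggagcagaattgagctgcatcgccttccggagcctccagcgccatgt

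Cidea promoter, chr18:63164567-63164866, plus strand: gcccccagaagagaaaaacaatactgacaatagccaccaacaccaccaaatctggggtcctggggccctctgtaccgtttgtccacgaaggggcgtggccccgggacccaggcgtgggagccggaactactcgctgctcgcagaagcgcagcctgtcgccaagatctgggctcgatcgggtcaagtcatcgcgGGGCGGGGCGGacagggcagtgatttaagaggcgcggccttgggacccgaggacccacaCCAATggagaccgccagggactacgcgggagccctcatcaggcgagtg

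Both windows held 2 matches to the GC box GGGCGG, a motif of the Sp factors that 33.1% of 33469 rat promoters of the same length contained. In Pnpla3 they began at -137 and -73 relative to the start, and in Cidea at -57 and -52, where they overlap each other. Pnpla3 had 2 CCAAT boxes on the minus strand, seen as ATTGG in the printed strand, and Cidea had 1 on the plus strand at the start (37.5% of promoters). Only Pnpla3 held a full cyclic AMP response element, TGACGTCA, at -58, next to the nearer CCAAT box (1.83% of promoters). The E-box CACGTG of ChREBP and USF (6.42%), the sterol response element TCACNCCAC of SREBP (1.12%) and the consensus DR1 element of PPAR with RXR (0.0538%) had no match in either window. These are letter matches in a short window and say nothing about binding elsewhere.

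All values below are log2 differences from the median of the same probe set over the 12 arrays, as deposited, so no absolute level can be given and the 2 genes cannot be ranked by abundance. For Pnpla3, the 3 pools on 5% corn oil were at 3.02, 1.28 and 1.76, and the 3 pools on 5% olive oil were at 2.85, 2.37 and 2.45. On 70% corn oil the pools were at -2.19, -3.16 and -2.62, and on 70% olive oil at -2.50, -2.48 and -1.28. Every low-fat pool was thus above the median and every high-fat pool below it. The 6 low-fat and the 6 high-fat arrays were separated by a gap of 2.57, and 0.443% of all genes were lower at 70% fat without overlap over both oils. The choice of the gene used this contrast, so nothing is read from that share. Because each probe set was centred on its median over an even number of arrays, its 2 middle arrays mirror each other around 0, here at 1.28 and -1.28.

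**Figure D1:**
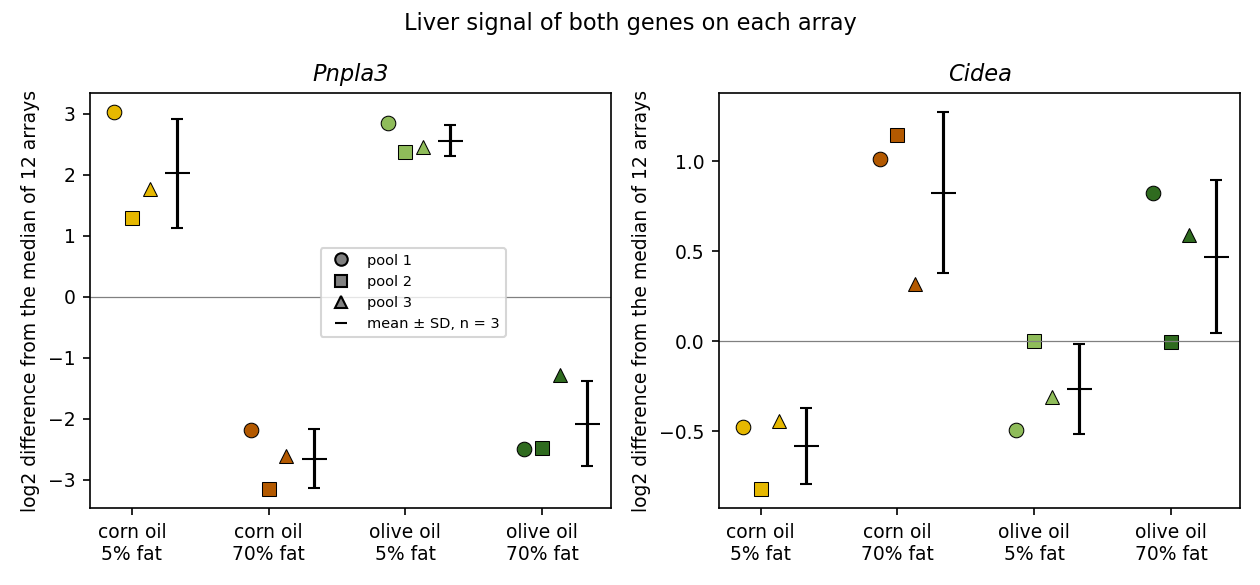
Deposited log2 values of Pnpla3 (left) and Cidea (right), relative to the probe set's 12-array median (vertical axis), for the 4 diets (horizontal axis). Symbols are single pools and bars are the mean ± SD of 3 pools; Pnpla3 is high in all 6 low-fat pools and low in all 6 high-fat pools, while Cidea has the opposite order and its olive oil groups touch at 0.0021 and -0.0021.

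The diet means of Pnpla3 were 2.56 ± 0.26 (SD, n = 3) on 5% olive oil, 2.02 ± 0.90 (SD, n = 3) on 5% corn oil, -2.09 ± 0.70 (SD, n = 3) on 70% olive oil and -2.66 ± 0.49 (SD, n = 3) on 70% corn oil. In this descending order, neighbours within a fat level overlapped and only the step between fat levels left a gap. The Pnpla3 level was 25.6-fold lower at 70% than at 5% fat with corn oil (log2 change -4.68 ± 0.42, SE, n = 3 and 3). With olive oil it was 25.0-fold lower (-4.64 ± 0.42, SE, n = 3 and 3). The difference between both log2 changes was -0.03 ± 0.59 (SE). Averaged over both oils, the decrease of -4.66 ± 0.30 (SE, 25.3-fold) was the largest of all 4736 genes. With corn oil alone Pnpla3 ranked 2 after Scd, the stearoyl-CoA desaturase that makes monounsaturated fatty acids (-5.54), and ahead of Fabp5, a fatty acid binding protein (-2.51). With olive oil alone it ranked 1, ahead of Fabp5 (-3.06) and Scd (-2.64).

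Cidea had the opposite order. On 5% corn oil its pools were at -0.48, -0.82 and -0.44, and on 5% olive oil at -0.49, 0.0021 and -0.31. On 70% corn oil the pools were at 1.01, 1.15 and 0.32, and on 70% olive oil at 0.82, -0.0021 and 0.59. The corn oil groups were separated by a gap of 0.758 (8.72% of genes were higher at 70% corn oil without overlap). The olive oil groups were not separated, because pool 2 of the 70% diet and pool 2 of the 5% diet lay at the same level, 0.0042 apart. These are the 2 middle arrays of this probe set.

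The diet means of Cidea were -0.58 ± 0.21 (SD, n = 3) on 5% corn oil, -0.27 ± 0.25 (SD, n = 3) on 5% olive oil, 0.47 ± 0.43 (SD, n = 3) on 70% olive oil and 0.83 ± 0.45 (SD, n = 3) on 70% corn oil. In this ascending order each pair of neighbours overlapped. The Cidea level was 2.65-fold higher at 70% than at 5% fat with corn oil (1.41 ± 0.24, SE, n = 3 and 3), rank 12 among increases. With olive oil it was 1.67-fold higher (0.74 ± 0.24, SE, n = 3 and 3), rank 23. The 2 log2 changes differed by 0.67 ± 0.34 (SE). Without pool 1 of 70% olive oil the olive oil change was 0.56, and without pool 2 it was 0.97. Over all left-out arrays the corn oil change ran from 1.25 to 1.66. RNA came from whole liver, in which fewer cells of a type and less RNA per cell cannot be told apart.

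**Figure D2:**
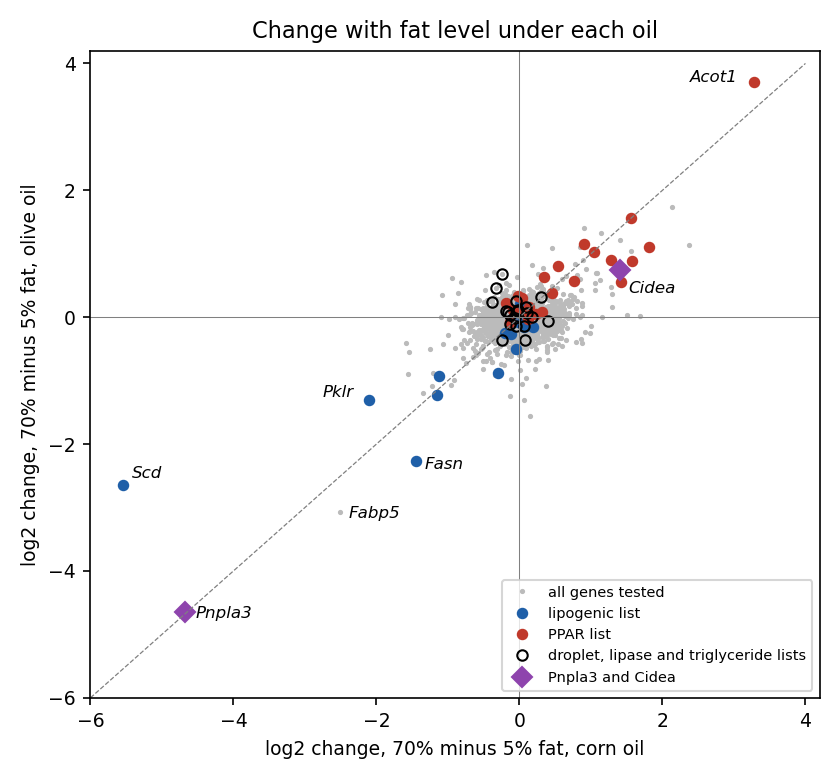
Log2 change from 5% to 70% fat with corn oil (horizontal axis) and with olive oil (vertical axis) for 4736 genes, 1 point per gene, with Pnpla3 and Cidea as diamonds, lipogenic genes in blue, PPAR genes in red and droplet, lipase and triglyceride genes as open circles. Pnpla3 lies at -4.68 and -4.64, near the line of equal change, and Cidea at 1.41 and 0.74, nearer to the bulk of the genes.

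The comparison of oils was not used to pick these genes. Yet the oil differences at 5% and at 70% fat share their diet means with the fat changes that were used. The tests at a single fat level are therefore not fully independent of the choice. Neither gene passed the test in any comparison of corn with olive oil (limma, Benjamini-Hochberg adjusted over 4736 genes), although 16.9% of all genes passed at 5% fat and 6.93% at 70% fat. For Pnpla3 the difference, corn minus olive, was -0.53 ± 0.42 at 5% fat (SE, adjusted p = 0.429, 95% interval -1.45 to 0.38). At 70% fat the difference was -0.57 ± 0.42 (SE, adjusted p = 0.485, 95% interval -1.48 to 0.35). Averaged over both fat levels, where 21.9% of all genes passed, it was -0.55 ± 0.30 (SE, adjusted p = 0.218), and an exact two-sided permutation of the oil labels within each fat level gave p = 0.135, where the smallest p the 400 permutations can give is 0.005. Without pool 1 of 5% corn oil, the highest of the 12 arrays, the mean difference was -0.80 ± 0.24 (SE, adjusted p = 0.0394), which passed; over the other omissions and settings it did not pass.

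For Cidea the oil difference, corn minus olive, was -0.31 ± 0.24 at 5% fat (SE, adjusted p = 0.409, 95% interval -0.83 to 0.20). At 70% fat it was 0.36 ± 0.24 (SE, adjusted p = 0.428, 95% interval -0.16 to 0.87). The mean over both fat levels was 0.02 ± 0.17 (SE, adjusted p = 0.949, exact permutation p = 0.93). Corn oil pools were thus lower than olive oil pools at 5% fat and higher at 70% fat on average, with neither difference past the threshold.

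A property of the arrays separated the oils. The 3'/5' index was the mean log2 difference between the 3' and 5' control probe sets of actin and GAPDH. These probe sets are centred on their medians like all others. The index therefore compares the arrays with each other, and its sign and size give no 3' to 5' signal ratio. Its mean was 1.28 ± 0.28 (SD, n = 3) on 5% corn oil and 0.71 ± 0.48 (SD, n = 3) on 70% corn oil. It was -0.36 ± 0.06 (SD, n = 3) on 5% olive oil and -0.35 ± 0.10 (SD, n = 3) on 70% olive oil. The oils differed by 1.35 (exact permutation p = 0.005, the smallest it can give), so each oil difference also compares arrays of different index. The index means of 5% and 70% corn oil differed too, with overlapping arrays, so the fat change with corn oil shares this limit in part. For that change 120 genes passed in the main fit and 23 with the index as a covariate. With the index as a covariate, 0 genes passed at 5% fat and 1 at 70% fat, and the oil differences of Pnpla3 became -2.07 ± 1.07 and -1.56 ± 0.75 (SE, adjusted p = 0.839 and 0.636). Those of Cidea became 0.38 ± 0.62 at 5% fat, with the sign turned, and 0.80 ± 0.44 at 70% fat (SE, adjusted p = 0.931 and 0.682), and its mean oil difference became 0.59 ± 0.50 (SE, adjusted p = 0.863). The fat change of Pnpla3 was then -4.15 with corn and -4.66 with olive oil, and that of Cidea 1.17 and 0.74. Around their diet means, the correlation with the index over 12 arrays was 0.42 for Pnpla3 and -0.34 for Cidea, values given as a description.

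**Figure D3:**
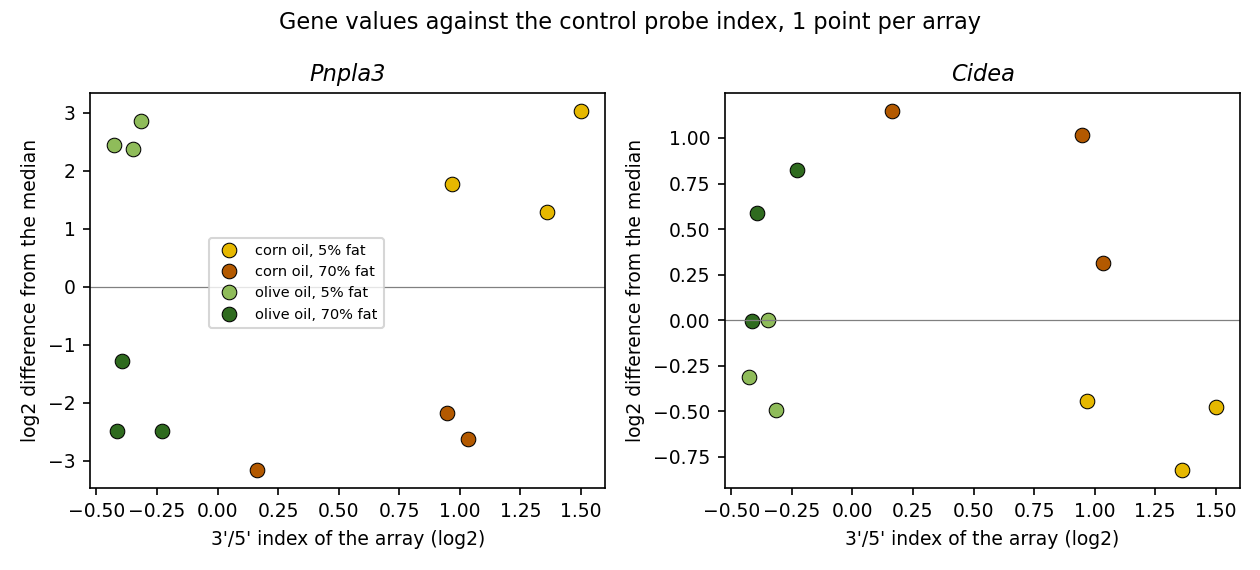
Deposited log2 values of Pnpla3 (left) and Cidea (right), as differences from the median of 12 arrays (vertical axis), against the 3'/5' index of the same array (horizontal axis, log2). Each point is 1 array coloured by diet; the olive oil arrays lie together at low index, the corn oil arrays spread to higher values, and both fat levels occur on either side.

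Both genes varied more between pools of a diet than most genes. The residual SD around the diet means was 0.63 for Pnpla3 and 0.35 for Cidea, at the 99.6 and 96.5 percentile of all genes, whose median was 0.130. The lowest and highest Pnpla3 pools on 5% corn oil lay 1.74 apart. Over the 12 arrays Pnpla3 and Cidea had a Pearson r of -0.82, which holds the diet differences they were picked for, while their deviations from the diet means had an r of 0.10. These are descriptions over arrays that share 4 diets.

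The genes whose profile over the 12 arrays was most like that of Pnpla3 were Fabp5 (r = 0.98), the fructose transporter Slc2a5 (0.96), the liver pyruvate kinase Pklr (0.94), the pyruvate dehydrogenase subunit Dlat (0.94) and the ATP citrate lyase Acly (0.93). Fabp5 was at 1.93, 1.12 and 1.01 on 5% corn oil, at -1.27, -1.17 and -1.01 on 70% corn oil, at 2.03, 1.27 and 1.91 on 5% olive oil and at -1.55, -1.38 and -1.05 on 70% olive oil. Pool 1 was the highest of both genes on 5% corn oil, while on 70% corn oil pool 1 was the highest for Pnpla3 and the lowest for Fabp5. Around the diet means the r of Fabp5 with Pnpla3 was 0.72. That of Acly was 0.70, of Pklr 0.51, of Slc2a5 0.50 and of Dlat 0.39. The most opposite profiles were those of Ptgfrn (-0.94), the retinal dehydrogenase Aldh1a1 (-0.93) and the mitochondrial enoyl-CoA isomerase Eci1 (-0.92).

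For Cidea the most like profiles were those of Eci1 (0.92) and Decr1 (0.91), both enzymes of the breakdown of unsaturated fatty acids in mitochondria, followed by the cytosolic aconitase Aco1 (0.90), the inositol phosphatase Impa2 (0.88) and Ubald1 (0.88). Eci1 was at -0.80, -0.84 and -0.68 on 5% corn oil, at 0.50, 0.62 and 0.42 on 70% corn oil, at -0.59, -0.20 and -0.42 on 5% olive oil and at 0.58, 0.41 and 0.48 on 70% olive oil. Its fat groups did not overlap with either oil (8.72% of all genes were higher at 70% corn oil without overlap). Eci1 was picked here for its likeness to Cidea, so nothing is read from that separation. The r of its deviations with those of Cidea was 0.78. That of Decr1 was 0.69, of Aco1 0.51, of Ubald1 0.38 and of Impa2 0.33. Opposite to Cidea were the mitochondrial transhydrogenase Nnt (-0.91), the stress gene Nupr1 (-0.87) and Slc2a5 (-0.84), and for Slc2a5 the r around the diet means was 0.04. All of these are correlations over arrays that share 4 diets, chosen as the highest and lowest of all genes.

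**Figure D4:**
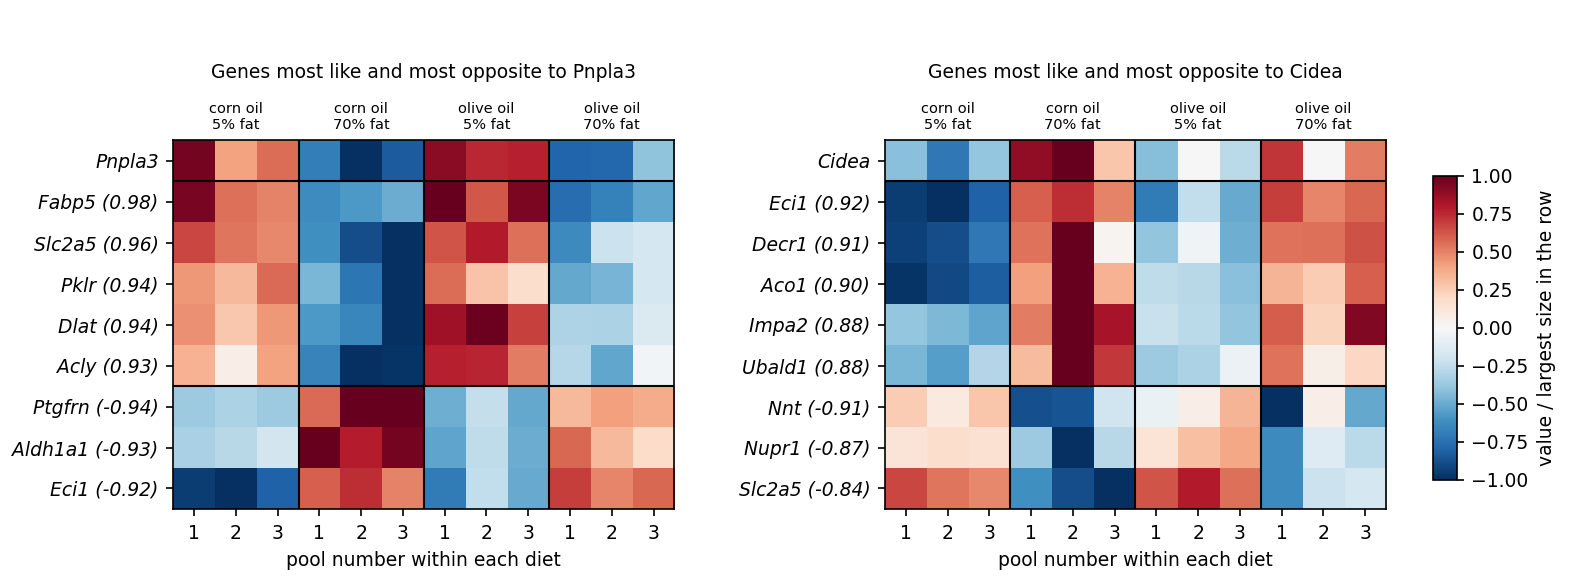
Deposited log2 values on the 12 arrays (columns, grouped by diet and numbered by pool) of Pnpla3 (left) and Cidea (right) in the top row, the 5 genes with the highest and the 3 with the lowest Pearson r (in brackets). Colour gives each value divided by the largest size in its row, red above and blue below the median; Fabp5 is high in the low-fat diets like Pnpla3, with r = 0.98, and Eci1 is high in the high-fat diets like Cidea, with r = 0.92.

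None of the other measured proteins of the droplet surface passed the test. Of 20 listed droplet proteins 6 were measured (Plin1, Plin2, G0s2, Hsd17b13, Cav1 and Acsl3), and 0 passed the test for fat with corn oil, 0 with olive oil, and 0 for the oil at either fat level (limma). At an unadjusted p under 0.05 these counts were 0, 1, 1 and 0. Of all genes 2.53% passed for fat with corn oil and 0.549% with olive oil, and 16.9% for the oil at 5% fat and 6.93% at 70% fat. Shares of this size leave few or no calls among 6 genes, so nothing is read from the counts of 0. The median change of the 6 was -0.03 with corn oil and 0.14 with olive oil, beside -0.0019 and 0.03 for all genes. Plin2, the main droplet coat protein of hepatocytes, had a fat difference of -0.33 ± 0.21 with corn oil (SE, adjusted p = 0.453) and of 0.47 ± 0.21 with olive oil (SE, adjusted p = 0.61). Its 2 probe sets disagreed for corn oil, at -0.89 and 0.23. Plin1, the coat protein of fat cells, had fat differences of -0.02 ± 0.11 and 0.11 ± 0.11 (SE). The fusion partner genes Cideb and Cidec, and Plin3, Plin4 and Plin5, were not measured under their own symbol.

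Of 17 listed lipases and cofactors 9 were measured. None of the 9 passed for fat with either oil, where 2.53% of all genes passed with corn and 0.549% with olive oil. At an unadjusted p under 0.05 there were 1 with corn and 2 with olive oil (limma), and the medians were -0.13 and 0.06. In the oil comparison 2 of the 9 were higher with corn oil at 5% fat and 1 at 70% fat, where 8.42% and 3.42% of all genes were higher, and 0 were lower. Lipa, the lysosomal acid lipase, was higher with corn than with olive oil at both fat levels. It averaged 0.53 ± 0.09 on 5% corn and -0.27 ± 0.06 on 5% olive oil (SD, n = 3), a rise of 0.80 ± 0.13 (SE, adjusted p = 0.00133). At 70% fat the difference was 0.78 ± 0.13 (SE, adjusted p = 0.00768). Over the 3 probe sets of Lipa the difference ran from 0.13 to 1.52 at 5% fat and from 0.41 to 1.18 at 70% fat. Pnpla7, a lysophospholipase and a relative of Pnpla3, was higher with corn oil at 5% fat (0.32 ± 0.08, SE, adjusted p = 0.0217), a call lost in 3 settings and when any 1 of 3 arrays was left out, with corn oil those of pools 1 and 2 and with olive oil that of pool 1 (adjusted p up to 0.921), and had fat differences of -0.13 ± 0.08 with corn and 0.04 ± 0.08 with olive oil (SE). Pnpla2, which encodes the main triglyceride lipase, was not measured under its own symbol, and the hormone-sensitive lipase Lipe had fat differences of -0.02 ± 0.09 and 0.09 ± 0.09 (SE).

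Of 20 listed genes of triglyceride synthesis and export 5 were measured. Among them 0 passed for fat with either oil, where 2.53% of all genes passed with corn and 0.549% with olive oil. At an unadjusted p under 0.05 there were 0 and 1 (limma), and the medians were 0.06 and -0.0036. In the oil comparison 2 of the 5 were lower with corn oil at 5% fat and 1 at 70% fat, where 8.49% and 3.51% of all genes were lower, and 0 were higher. With corn oil at 5% fat Gpd1, which makes glycerol 3-phosphate, was lower, at -1.14 ± 0.12 (SE, adjusted p = 0.000302), and Gpam, which adds the first fatty acid to it, at -0.77 ± 0.10 (SE, adjusted p = 0.000459). At 70% fat Gpd1 was lower with corn oil, at -0.96 ± 0.12 (SE, adjusted p = 0.00346), while Gpam was at -0.34 ± 0.10 (SE, adjusted p = 0.0578). Over the 5 probe sets of Gpam the difference ran from -1.57 to -0.36 at 5% fat and from -0.75 to -0.14 at 70% fat. Dgat1, which completes triglycerides, had fat differences of 0.06 ± 0.08 and -0.14 ± 0.08 (SE). The oil calls given for Lipa, Pnpla7, Gpd1 and Gpam were lost once the 3'/5' index was a covariate (adjusted p from 0.52 to 0.921), a fit in which the SE of an oil difference is wider. The differences themselves were then 0.48 and 0.57 for Lipa at 5% and 70% fat, 0.21 for Pnpla7 and -0.75 for Gpam at 5% fat, and -0.57 and -0.59 for Gpd1 at 5% and 70% fat.

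**Figure D5:**
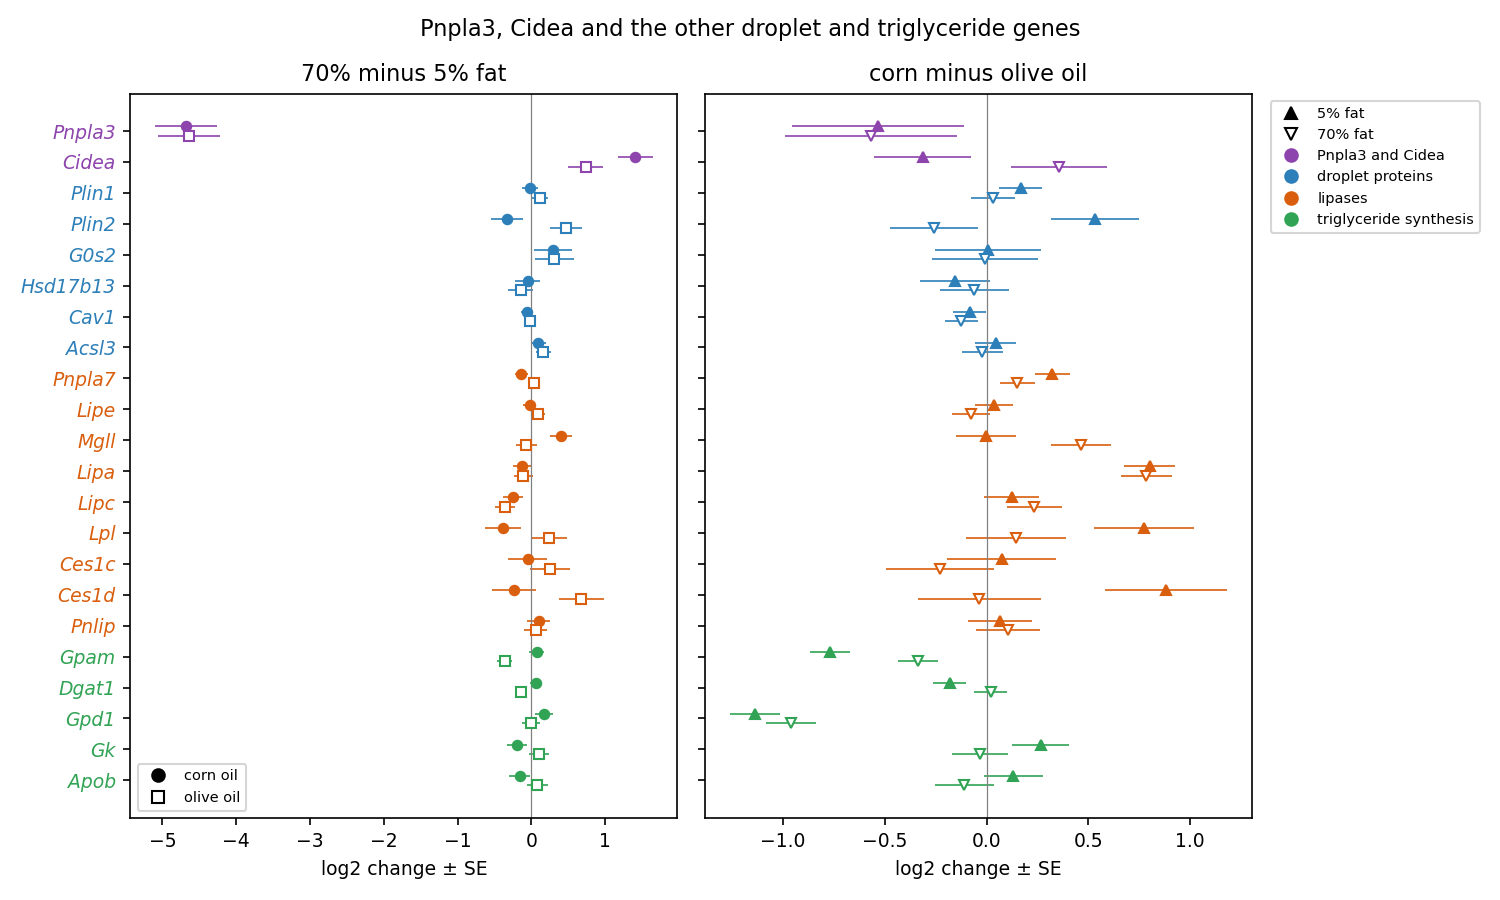
Log2 change ± SE from 5% to 70% fat with each oil (left) and from olive to corn oil at each fat level (right), for Pnpla3, Cidea and the measured droplet proteins, lipases and genes of triglyceride synthesis (rows). On the left Pnpla3 stands far below 0, at -4.68 and -4.64; on the right Lipa lies above 0 and Gpd1 below 0 at both fat levels.

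Pnpla3 shares its known regulators with the lipogenic enzymes, of which 15 of 25 listed genes were measured. With corn oil 5 fell and 0 rose at 70% fat, and with olive oil 5 fell and 0 rose (1.01% and 0.338% of all genes fell). The list medians were -0.11 and -0.26. The fatty acid synthase Fasn changed by -1.45 ± 0.24 with corn oil (SE, adjusted p = 0.00917) and by -2.27 ± 0.24 with olive oil (SE, adjusted p = 0.000891). Acly fell by 1.12 ± 0.14 (SE, adjusted p = 0.00134) and by 0.93 ± 0.14 (SE, adjusted p = 0.00803), and Pklr fell by 2.11 ± 0.25 (SE, adjusted p = 0.000933) and by 1.30 ± 0.25 (SE, adjusted p = 0.0394). The 3 probe sets of Acly disagreed for corn oil, from -1.87 to 0.14. Those of Fasn, 2 in number, were at -2.63 and -0.28 with corn oil and at -2.41 and -2.14 with olive oil. The call of Fasn with corn oil was lost in 3 alternative settings (adjusted p up to 0.0748). That of Pklr with olive oil was lost in 2 settings and when any 1 of 8 arrays was left out (adjusted p up to 0.218), and that of Acly with olive oil without pool 1 of 5% or of 70% olive oil (adjusted p up to 0.0542). The change of Scd was larger with corn oil (-5.54 ± 0.34) than with olive oil (-2.64 ± 0.34, SE), and the difference between both oils did not pass the test (adjusted p = 0.168), as for all genes. No gene of the 4736 passed this interaction test in limma, and 565 had an unadjusted p under 0.05. Srebf1, which encodes SREBP-1, had fat differences of 0.13 ± 0.24 (SE, adjusted p = 0.819) and 0.06 ± 0.24 (SE, adjusted p = 0.976). Mlxipl, which encodes ChREBP, was not measured under its own symbol.

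In the oil comparison the lipogenic genes and Pnpla3 differed in their calls. At 5% fat 5 of the 15 lipogenic genes were lower with corn oil and 0 higher (8.49% of all genes were lower), and at 70% fat 4 were lower and 0 higher (3.51%). Fasn was lower with corn oil at 5% fat, at -1.81 ± 0.24 (SE, adjusted p = 0.000546) and so was Srebf1, at -0.94 ± 0.24 (SE, adjusted p = 0.0195), beside the -0.53 ± 0.42 of Pnpla3 that did not pass. Whether Fasn and Srebf1 differ from Pnpla3 was not tested. The 2 probe sets of Fasn were far apart for the oil at 5% fat, at -3.13 and -0.50. At 70% fat Scd was lower with corn oil, at -2.96 ± 0.34 (SE, adjusted p = 0.00194). The oil calls given for Fasn, Srebf1 and Scd were lost once the 3'/5' index was a covariate (adjusted p from 0.25 to 0.972). In that fit Fasn was at -1.38 and Srebf1 at -0.18 for 5% fat, and Scd was at -3.56 for 70% fat. The call of Srebf1 was also lost on the arrays of both groups alone and when any 1 of 3 arrays was left out (pool 2 of 5% corn oil, pools 1 and 2 of 5% olive oil).

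Cidea is among the known targets of the PPAR receptors, for which 23 of 31 listed genes were measured. At 70% fat 8 rose and 0 fell with corn oil, and 6 rose and 0 fell with olive oil (1.52% and 0.211% of all genes rose). The list medians were 0.34 and 0.38, beside -0.0019 and 0.03 for all genes. Eci1 rose by 1.29 ± 0.10 with corn oil (SE, adjusted p = 5.2e-05) and by 0.90 ± 0.10 with olive oil (SE, adjusted p = 0.00145). These calls held after a second quantile normalization, centring, trend and robust moderation, array weights, the pool block, the index and on both groups alone, and without each array. Over its 4 probe sets the change with olive oil ran from 0.15 to 1.61, with the lowest for corn oil at 0.35. Cyp4a1, which hydroxylates the omega end of fatty acids, rose by 1.81 ± 0.21 (SE, adjusted p = 0.000978) and by 1.11 ± 0.21 (SE, adjusted p = 0.0432). The acyl-CoA thioesterase Acot1 rose by 3.28 ± 0.64 (SE, adjusted p = 0.0191) and by 3.70 ± 0.64 (SE, adjusted p = 0.0228). The olive oil call of Cyp4a1 was lost in 2 settings and when any 1 of 10 arrays was left out (adjusted p up to 0.218). The calls of Acot1 were lost in 2 settings and when any 1 of 3 arrays was left out with corn oil (adjusted p up to 0.213), and in 1 setting and when any 1 of 4 arrays was left out with olive oil (adjusted p up to 0.132). The fat differences of the receptor genes themselves were 0.04 ± 0.10 and 0.29 ± 0.10 for Ppara (SE, adjusted p = 0.883 and 0.36) and -0.02 ± 0.11 and 0.34 ± 0.11 for Pparg (SE, adjusted p = 0.944 and 0.353).

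With corn against olive oil 7 of the 23 were lower and 0 higher at 5% fat (8.49% and 8.42% of all genes), and 3 were lower and 0 higher at 70% fat (3.51% and 3.42%). The fatty acid transporter Cd36 was lower with corn oil, at -1.43 ± 0.20 for 5% fat (SE, adjusted p = 0.000676) and -1.25 ± 0.20 (SE, adjusted p = 0.00751), while its fat differences were 0.23 ± 0.20 and 0.06 ± 0.20 (SE). Pdk4, the kinase that shuts pyruvate dehydrogenase, was lower with corn oil, at -1.11 ± 0.22 (SE, adjusted p = 0.00479) and -1.03 ± 0.22 (SE, adjusted p = 0.0174). These calls were lost with the index as a covariate (adjusted p from 0.494 to 0.884), while the differences were -1.42 and -1.25 for Cd36 and -0.83 and -0.85 for Pdk4. The call of Pdk4 at 70% fat was also lost when pool 1 of 70% corn oil or pool 1 or 2 of 70% olive oil was left out. The lower mean of Cidea with corn oil at 5% fat was in the direction of these genes and its higher mean at 70% fat was not, with neither past the threshold.

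Because Cidea, Plin1 and Cidec are abundant in fat cells, markers of adipocytes were read beside it. Of 11 listed markers 8 were measured, while Adipoq, Retn and Cidec were not measured under their own symbol. At 70% fat 0 of the 8 rose and 1 fell with corn oil (Fabp4, -0.35 ± 0.08, SE, adjusted p = 0.0495), and 0 passed with olive oil (limma). At an unadjusted p under 0.05 there were 2 with corn and 2 with olive oil. Their summed log2 values ran from 0.94 to 1.34 on 5% corn oil and from -0.27 to 0.33 on 70% corn oil, opposite to Cidea. They ran from -0.59 to -0.13 on 5% olive oil and from -0.43 to 0.63 on 70% olive oil. The means with olive oil were -0.42 and -0.01, in the same direction as Cidea, with overlapping ranges. Of 10 hepatocyte markers 9 were measured, and 0 passed for fat with either oil. Their sums ran from -2.33 to -1.24 on 5% corn and from -1.29 to -0.27 on 70% corn oil, and from 0.53 to 1.56 on 5% olive and from -0.65 to 1.05 on 70% olive oil. Among macrophage, stellate, endothelial and bile duct markers, Kdr fell with corn oil (-0.65 ± 0.15, SE, adjusted p = 0.0441) and Ctss with olive oil (-0.96 ± 0.16, SE, adjusted p = 0.0164), and no other member passed for fat. At an unadjusted p under 0.05 there were 2 of 8 macrophage markers with corn and 5 with olive oil (limma). Their medians were 0.03 and -0.46, and their changes with olive oil ran from -0.96 to 0.41. Macrophage sums ran from -1.37 to 1.49 on 5% and from -1.06 to 0.84 on 70% corn oil. They ran from 0.47 to 2.76 on 5% and from -2.64 to -0.74 on 70% olive oil. Unadjusted counts were 0, 1 and 0 with corn and 2, 1 and 0 with olive oil for stellate, endothelial and bile duct markers. With corn against olive oil at 5% fat, 0 hepatocyte markers were higher and 4 of 9 lower (Apoa1, Cps1, Serpina1 and Hpx), 2 of 8 adipocyte markers higher (Cfd and Ucp1) and 0 lower, and 3 of 7 stellate markers higher (the collagens Col1a1, Col1a2 and Col3a1) and 0 lower. Of the macrophage markers 1 of 8 was higher and 2 lower, of the endothelial ones 1 of 4 higher and 1 lower, and of the bile duct ones 2 of 4 higher and 1 lower. At 70% fat Cps1 was lower and Cfd, Col1a2 and Ctss were higher with corn oil, and no other marker passed. Over all genes 8.42% were higher and 8.49% lower with corn oil at 5% fat, and 3.42% and 3.51% at 70% fat. For fat 2.53% of all genes passed with corn oil and 0.549% with olive oil. In lists this short, counts of 1 or 2 are not read as a shift of a cell type. The part of these markers in the fat and oil differences given above was not tested. Centred values do not show whether a marker is absent, so the tissue label was not checked by level.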

How the data were processed

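Liver RNA of 12 pools, 3 for each of 4 diets, was measured on Affymetrix arrays. The values deposited by the authors are log2 signals of 8799 probe sets made with GCOS and RMA, versions not stated, per the submitters' processing notes. The table does not state the base, which was taken as 2. For 100% of probe sets the median of the 12 values was 0 (within 1e-06), so values are centred. The table had 0 columns of other samples. The number of arrays limits the precision, and centred values do not show signal over background. The closest pair of arrays differed by a root mean square of 0.195, so none was a duplicate.

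The 59 control probe sets were left out. Of 8740 others, 7006 had 1 symbol, 308 several (no gene named) and 1426 none here; 6985 symbols were updated through the gene identifier (GRCr8). Probe sets of 1 gene were averaged. Tests used limma 3.58.1 in R 4.3.3 with 4 diet means, 8 residual degrees of freedom and eBayes, two-sided, with Benjamini-Hochberg adjustment over all genes within a contrast and a threshold of 0.05. The code was tested on simulated data. The alternative settings were centring of arrays, a second quantile normalization, trend and robust moderation, array weights, the pool number as a block, the 3'/5' index as a covariate, the arrays of both groups alone, a fit on probe sets, omission of each array in turn and a minimum of 1.5-fold. Named genes were Pnpla3 and Cidea, the called members of the droplet, lipase and triglyceride lists, up to 4 called members of each other list per contrast, up to 2 of a list with none, some genes always looked up, and the 5 most like and 3 most opposite profiles by Pearson r. The text names a part of them. The cell type markers were named after their values were seen. The genes, lists and tests were chosen with earlier results of these data known, so lists are described by counts and medians without a set test.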

Additional observations from a re-analysis of the deposited data

How the results depend on the processing

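The fat changes of both genes kept their direction in each setting run. Pnpla3 ranged from -5.05 to -4.18 with corn and from -5.05 to -4.44 with olive oil over left-out arrays, and Cidea from 1.25 to 1.66 and from 0.56 to 0.97. After a second quantile normalization of the centred values Pnpla3 was at -4.14 with corn and -4.70 with olive oil. The difference between both oils' fat changes had no stable sign for Pnpla3: it was 0.56 after that normalization, 0.16 with array weights, 0.51 with the 3'/5' index and -0.40 to 0.47 over left-out arrays. For Cidea it was 0.38 ± 0.44 (SE) after that normalization and 0.42 ± 0.39 (SE) with the index. It was 1.03 with array weights and 0.43 to 0.92 over left-out arrays. The oil difference of Pnpla3 at 70% fat was 0.34 and its mean over fat levels 0.057 after the second normalization, and the mean ran from -0.80 to -0.35 over left-out arrays, with 1 omission past the threshold. That of Cidea at 5% fat was 0.38 with the index, and its mean was -0.0015 after centring and ran from -0.10 to 0.15 over left-out arrays. The cause of these shifts was not tested.

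Counts of genes passing were followed for the fat changes and for the oil at each fat level. For fat with corn oil, 120 genes passed, 24 after the second normalization, 79 with trend and robust moderation, 75 with array weights, 23 with the index, 39 on both groups alone, 184 of 8740 probe sets, 75 with a 1.5-fold minimum and 39 to 219 over left-out arrays. For fat with olive oil these were 26, then 49 after the normalization, 94 with weights, 40 on both groups alone and 11 to 37 over left-out arrays; with arrays centred, 3 rose and 15 fell in place of 10 and 16. For the oil at 5% fat, 801 passed, 1315 with weights, 0 with the index, 1704 probe sets, 342 with the fold minimum and 465 to 1011 over left-out arrays. At 70% fat 328 passed, 508 after the normalization, 1 with the index, 130 on both groups alone, 744 probe sets, 139 with the fold minimum and 108 to 538 over left-out arrays.

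Of the list counts, with the index no member passed for the oil (0 in each of the 6 lists at both levels), and for fat with corn oil 3 lipogenic and 2 PPAR genes passed. After the second normalization 3 lipogenic and 3 PPAR genes passed for fat with corn oil, 4 PPAR and 1 cell death gene for the oil at 5% fat, and 2 triglyceride and 1 cell death gene at 70% fat. Array weights gave 1 triglyceride, 10 PPAR and 1 cell death gene for fat with olive oil, 1 droplet, 4 lipase and 6 cell death genes for the oil at 5% fat, and 2 triglyceride and 1 cell death gene at 70% fat. Centring gave 2 PPAR genes for fat with olive oil, and 2 triglyceride and 1 cell death gene for the oil at 70% fat. Both groups alone gave 3 lipogenic genes for fat with corn oil and 2 lipases for the oil at 70% fat, and the fold minimum left 1 lipase and 0 cell death genes for the oil at 5% fat. Over left-out arrays, for fat with corn oil the counts ran from 0 to 1 lipases, 4 to 10 PPAR and 0 to 1 cell death genes, and with olive oil from 3 to 6 lipogenic and 1 to 8 PPAR genes. For the oil at 5% fat they ran from 0 to 1 droplet, 1 to 4 lipase, 2 to 6 lipogenic, 3 to 8 PPAR and 0 to 5 cell death genes. At 70% fat they ran from 1 to 2 lipases, 2 to 7 lipogenic, 2 to 5 PPAR and 0 to 1 cell death genes. With the index the oil differences at 5% fat and their means turned sign for Cyp4a1 (0.0090 and 0.13), Ech1 (0.0043 and 0.20), Acot2 (0.41 and 0.077) and Casp1 (-0.033 and -0.11).

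The pool number as a replicate block moved the counts of genes to 122 for fat with corn oil, 24 with olive oil, 792 for the oil at 5% fat and 296 at 70% fat, and the list counts to 4 lipases for the oil at 5% fat and 1 cell death gene for fat with corn oil. The numbers only name the pools: of 18 pairs with the same number, 4 had a correlation of deviations above 0.1 (range -0.16 to 0.23), and in 6 of the 18 the best partner had the same number. The planned filter on low values was not run, because centred values hold no level.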

Other observations

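CIDEA takes its name from a domain shared with DFF45 (Dffa) and the nuclease DFF40 (Dffb), so genes of apoptosis were read beside it. Of 22 listed genes 11 were measured, and Dffa and Dffb were not measured under their own symbol. None of the 11 passed for fat with corn oil or with olive oil, where 2.53% and 0.549% of all genes passed. At an unadjusted p under 0.05 there were 4 and 1 (limma), and the list medians were -0.09 and 0.09. At 5% fat 2 were higher with corn than with olive oil, the inflammatory caspase Casp1 (0.35 ± 0.09, SE, adjusted p = 0.0243) and the death ligand Faslg (0.30 ± 0.09, SE, adjusted p = 0.0408), and the executioner caspase Casp6 was lower (-0.47 ± 0.12, SE, adjusted p = 0.0189). Of all genes 8.42% were higher and 8.49% lower. At 70% fat 0 passed (limma, 4 at an unadjusted p under 0.05), where 6.93% of all genes passed. The 3 calls were lost once the 3'/5' index was a covariate (adjusted p from 0.917 to 0.979), with Casp1 at -0.033, Faslg at 0.19 and Casp6 at -0.36. The call of Casp1 was lost in 2 settings, the index included, and when any 1 of 4 arrays was left out. That of Casp6 was lost in 2 settings and with any 1 of 3 arrays left out, and that of Faslg in 4 settings and with any 1 of 6 arrays left out.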
